A study of Homo sapiens with 18 samples.

Results

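Cholesterol and fatty acid synthesis were followed through 30 genes taken from a fixed list of symbols. All 30 were found among the 35933 genes with values, and all 30 passed the filter on low values (a mean of at least 10 normalized counts over the libraries compared) in every comparison. Of these, 18 encode enzymes of cholesterol synthesis, 4 encode regulators or a sterol carrier (SREBF1, SREBF2, INSIG1 and STARD4) and 8 encode enzymes that make, lengthen, desaturate or pass on fatty acids. RNA was sequenced from 3 human breast epithelial lines of 1 lineage. MCF10A arose by spontaneous immortalization and is not tumorigenic, MCF10AT1 was derived from it with mutated HRas, and MCF10CA1h was recovered from MCF10AT1 after passage through mouse xenografts. Each line had 3 control libraries and 3 libraries labelled METTL3 knockdown, replicates a, b and c, 18 libraries in all. METTL3 is the catalytic subunit of the complex that writes N6-methyladenosine on RNA. Control cells had received a CRISPR/Cas9 construct with a control guide RNA, and knockdown cells one with a guide against exon 1 of METTL3. Both constructs carried mCherry for sorting. They have different catalogue names, and whether they differ beyond the guide is not stated. All lines were grown with horse serum, insulin, hydrocortisone, cholera toxin and epidermal growth factor, so the medium of every group held both serum lipid and insulin. Each arm of a line was 1 selected clone, and the spread between its replicates holds no difference between clones.

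Cells build cholesterol from acetyl-CoA by way of mevalonate, isoprenoid pyrophosphates, squalene and lanosterol. Fatty acids branch from the same acetyl-CoA pool. Transcription factors encoded by SREBF1 and SREBF2 switch on most of these enzymes when membrane sterol is scarce, and INSIG1 holds the factors back in the endoplasmic reticulum when sterol is plentiful. Genes of both routes are known to move as a group with sterol supply and insulin.

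Promoter windows were read from RefSeq on GRCh38.p14, from 250 bases before to 50 bases after the annotated start, and 26 of the 30 genes had one. Those of 3 genes are printed because the results turn on their genes or because they show how the motifs are spread: SREBF2 held the only match to a sterol regulatory element core among the 26, MVK was higher in control MCF10CA1h than in either other control line and has 5 CCAAT boxes, and TM7SF2 was the member that differed most in MCF10AT1. Capitals mark TCACNCCAC, the sterol regulatory element core, and CCAAT, the box bound by the NF-Y factor, on either strand (CCAAT reads ATTGG on the other strand). The windows are chr22:41832855-41833154 on the plus strand for SREBF2, chr12:109573544-109573843 on the plus strand for MVK and chr11:65111622-65111921 on the plus strand for TM7SF2.
SREBF2: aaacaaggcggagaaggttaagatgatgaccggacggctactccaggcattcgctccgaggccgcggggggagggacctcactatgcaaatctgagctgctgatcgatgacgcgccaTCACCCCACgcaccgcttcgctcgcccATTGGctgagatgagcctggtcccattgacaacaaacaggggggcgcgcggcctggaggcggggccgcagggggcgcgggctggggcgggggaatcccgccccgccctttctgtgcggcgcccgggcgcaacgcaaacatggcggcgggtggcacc
MVK: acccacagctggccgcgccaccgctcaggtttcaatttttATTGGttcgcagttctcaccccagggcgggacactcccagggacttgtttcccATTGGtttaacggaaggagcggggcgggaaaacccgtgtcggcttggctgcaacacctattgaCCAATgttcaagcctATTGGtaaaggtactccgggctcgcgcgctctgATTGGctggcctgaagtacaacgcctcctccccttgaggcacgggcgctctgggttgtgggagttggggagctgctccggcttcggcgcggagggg
TM7SF2: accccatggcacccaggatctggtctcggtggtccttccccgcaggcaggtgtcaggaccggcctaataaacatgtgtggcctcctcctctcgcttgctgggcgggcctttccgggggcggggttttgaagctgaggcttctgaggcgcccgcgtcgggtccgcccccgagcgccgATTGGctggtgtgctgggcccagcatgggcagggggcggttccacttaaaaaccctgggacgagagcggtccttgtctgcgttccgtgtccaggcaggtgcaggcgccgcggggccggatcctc
The sterol element core lay in 1 of 26 members (3.8%), against 1.4% of the 11293 tested genes with a window. A CCAAT box lay in 20 of 26 (76.9%), against 42.9% of those genes, and a GC box (GGGCGG, not marked) in 25 of 26 (96.2%), against 75.2%. SREBF1, PMVK, CYP51A1, ELOVL6, FADS1 and LPIN1 had no CCAAT box in the window. These matches describe letters in a short window and do not show binding.

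The deposited sums per library ran from 21347352 to 31681834 normalized counts. The commonest lowest value of a library, about the worth of 1 read there, ran from 0.81 to 1.77, and a high value marks a shallow library. METTL3 RNA did not fall in MCF10A (752, 686 and 459 in control, 939, 981 and 510 in the knockdown-labelled libraries, log2 difference 0.33, SE 0.30, adjusted p = 0.618) or in MCF10AT1 (968, 1016 and 805 against 816, 752 and 902, −0.17, SE 0.26, adjusted p = 0.707). It fell in MCF10CA1h, from 1022, 1102 and 1280 to 825, 745 and 843 (−0.49, SE 0.12, adjusted p = 0.0234). In MCF10A and MCF10AT1 the RNA thus gave no check of the label, and the arms are called knockdown-labelled below. A guide against exon 1 can act on the protein without lowering the RNA. The study checked its clones by Western blot and also measured METTL3 RNA by real-time PCR. These data hold neither measure, and the values above were not compared with them. The knockdown-labelled MCF10AT1 libraries stood apart from the controls of their line in cell-type markers. The summed level of 10 breast epithelial markers was 26476 to 55668 in them against 159043 to 261417 in their controls, and 7 of the 10 were called lower. The sum of 10 mesenchymal markers was 118322 to 206973 against 3785 to 5132, most of it VIM and FN1 in the knockdown-labelled libraries. Of 8 tested, 5 were called higher, while the group means of COL1A1 (117 in control, 81.8) and PDGFRB (21.8 in control, 19.0) were lower. The sum of 6 markers of adipocytes, a cell type that makes fat, was 2079 to 8779 against 413 to 932. Of 4 tested, 3 were called higher. FABP4 had the largest group mean (3626, against 1.9 in control), and ADIPOQ and LEP were under 10 in both arms. CDH2, COL3A1, THY1, CIDEC and FABP4 were under 10 in every control library of this line. They passed the filter only through the knockdown-labelled arm, so their tests could hardly have gone the other way and add no support. Of 5 blood and endothelial markers with values, PTPRC, CD3E and CDH5 were under 10 in every group, whereas the group means of CD68 ran from 185 to 1139 and those of PECAM1 from 43.4 to 517. In MCF10CA1h, where the epithelial sum was 548805 to 613951 in the knockdown-labelled libraries against 376536 to 410587 in control, 4 epithelial markers were called higher, 2 mesenchymal markers higher and 1 lower, 1 adipocyte marker lower (FABP4) and 1 blood or endothelial marker each way (CD68 higher, PECAM1 lower). In MCF10A 1 epithelial marker was called higher and none of the other lists. The part of any of these in the members' values was not tested.

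Within both MCF10A groups and the knockdown-labelled MCF10AT1 group, most of the lipid genes were high or low in the same library, whereas in MCF10CA1h no library was highest for more than 15 of the 30. In the knockdown-labelled MCF10A libraries, replicate b was the highest of 3 for 29 of the 30 members (all but PMVK), whereas it was the highest for 34.6% of all genes tested. Replicate a of that group was the lowest for 21 members, against 38.7% of all genes. SCD, which puts the first double bond into saturated fatty acids, read 28177, 103787 and 36889 normalized counts in replicates a, b and c there. INSIG1 read 328, 1553 and 344, and ACAT2, which condenses acetyl-CoA into acetoacetyl-CoA, read 193, 1413 and 224. For these 3 genes, replicate b lay far above the other libraries, which were close to each other. The worth of 1 read in these libraries was about 0.91, 1.23 and 0.81, so replicate b was the shallowest, and the part of depth in its high values was not tested. The control MCF10A libraries also moved jointly. Replicate c was the lowest for 24 members (33.0% of all genes) and the highest for none, and replicate b was again most often the highest, for 18 (22.2%). In the knockdown-labelled MCF10AT1 group, replicate a was the highest for 24 members (35.9% of all genes).

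**Figure D1:**
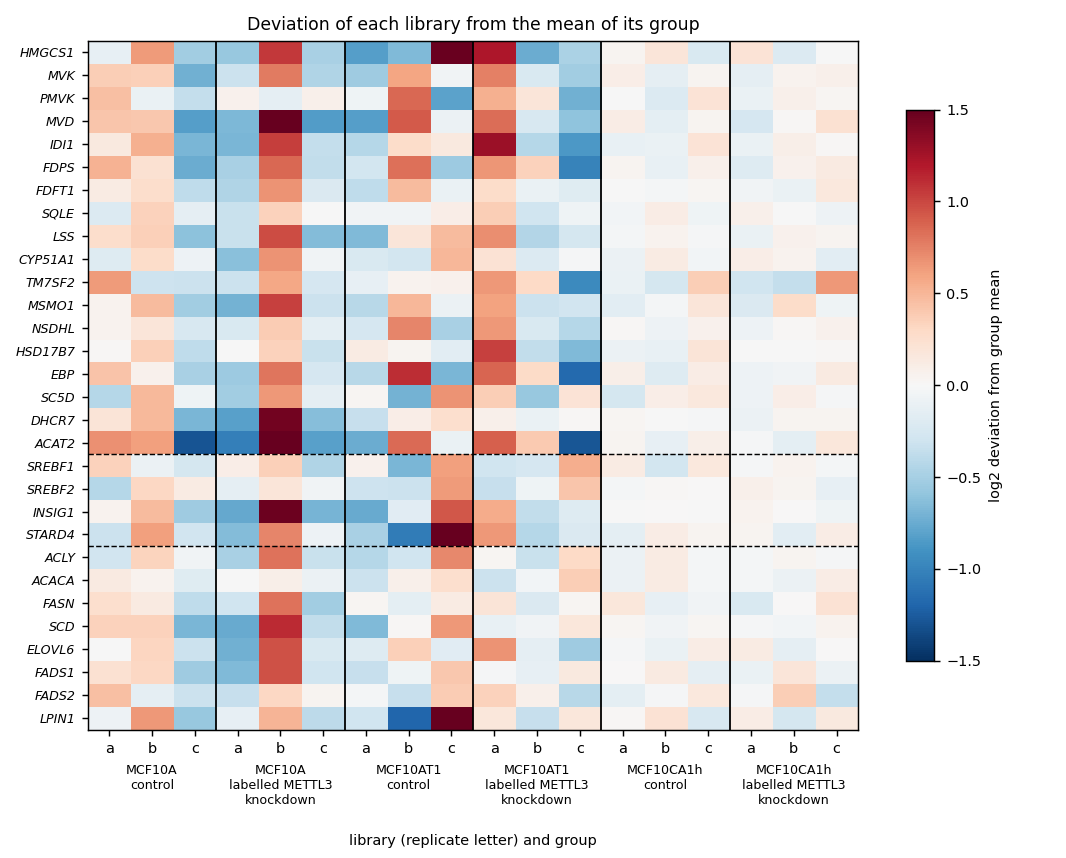
Colour gives the log2 deviation of each library (columns, replicates a, b and c of the 6 groups) from its group mean for the 30 genes (rows; dashed lines part cholesterol enzymes, regulators and transport, and fatty acid enzymes). Replicate b of the knockdown-labelled MCF10A group is above its group mean in nearly every row, and the MCF10CA1h columns are pale.

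The median SD between replicates on the log2 scale was 0.46 for the members against 0.32 for all genes in control MCF10A, and 0.70 against 0.25 in the knockdown-labelled MCF10A libraries. In MCF10AT1 it was 0.58 against 0.55 in control and 0.51 against 0.43 in the other arm. MCF10CA1h was tight, with 0.13 against 0.19 in control and 0.12 against 0.20 in the knockdown-labelled libraries. Acetyl-CoA carboxylase ACACA, the enzyme that commits acetyl-CoA to fatty acids, was the steadiest member in both MCF10A groups (SD 0.16 and 0.09), and ACAT2 varied most (1.13 and 1.6). The 40 tested genes of a wider lipid list, with further steps of the same routes and sterol export and uptake, followed the members less, since replicate b of the knockdown-labelled MCF10A group was the highest for 25 of them.

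Among the control MCF10AT1 libraries, most members were highest in replicate b or c, as were most of all genes. Replicate c was highest for 18 (39.6% of all genes), among them SREBF1, SREBF2, SCD, FASN, HMGCS1 and LPIN1. Replicate b, the shallowest of the 18 libraries at 1.77 per read, was highest for 11 (38.9%), among them PMVK, MVD, FDPS, EBP, NSDHL and ACAT2. Replicate a was the lowest for 17 members, against 19.2% of all genes. Deviation from the group mean ran with transcript length over 15877 genes in these libraries, with Spearman's rho −0.38 in replicate b and 0.46 in replicate c, and over the 30 members with rho −0.69 and 0.69. These are correlations across genes that share a library, given as a description. Replicate c of the knockdown-labelled MCF10AT1 group had rho 0.28 over all genes and 0.73 over the members, whereas rho in replicate b of the knockdown-labelled MCF10A group was 0.14 and −0.08. The relation was not limited to MCF10AT1. Over all genes and over the members, rho was −0.38 and −0.53 in MCF10A control replicate a. It was 0.32 and 0.55 in MCF10CA1h control replicate b. Whether transcript length has a part in the values of any line was not tested.

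**Figure D2:**
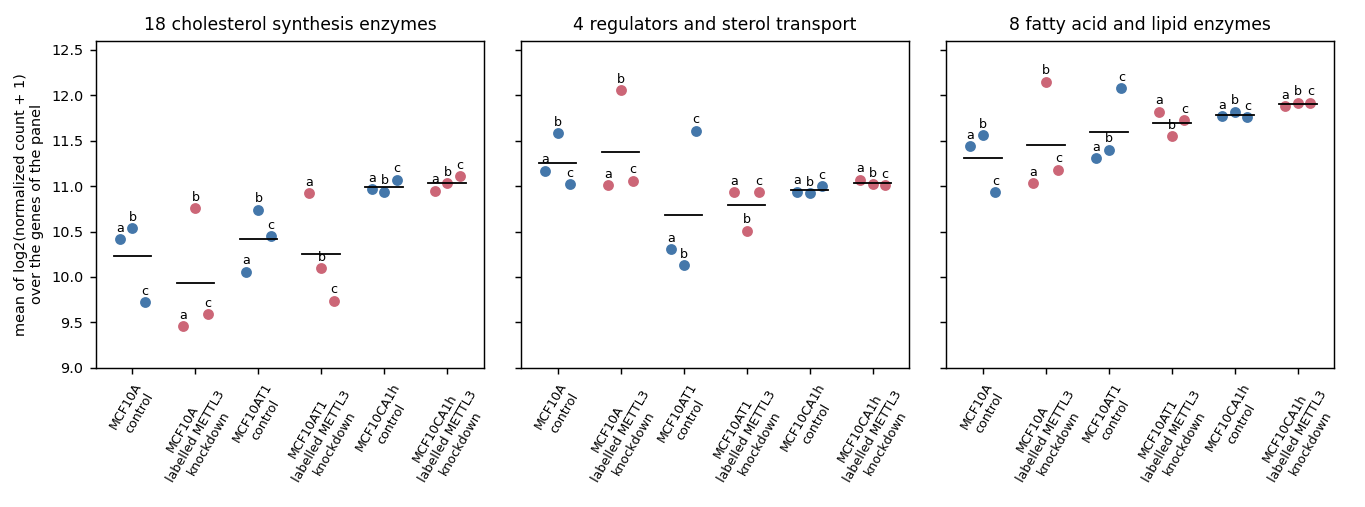
Each point is the mean of log2(normalized count + 1) over the genes of a panel in 1 library (letters, replicates; blue, control; red, knockdown-labelled; lines, group means of 3 libraries). The 3 libraries of each MCF10CA1h arm lie together, and those of MCF10A and MCF10AT1 are spread over as much as 1 unit or more, a distance that covers the difference between their arms.

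In MCF10A, none of the 30 members differed between the arms by the limma test at an adjusted p under 0.05, where 2.65% of 15416 tested genes did. At an unadjusted p under 0.05 there were 2 members, SREBF1 and SQLE, and they were also the members whose arms did not overlap. Of all genes, 18.4% had such a p and 23.9% did not overlap. The median log2 difference of the members was −0.17 with a median SE of 0.37, and the 95% interval lay within a 2-fold change either way for 10 of 30. Changes smaller than the spread of these libraries could not be detected, and the test does not show that the arms were alike. For the fit with the replicate letter as a block (libraries of the same letter moved together in this line), 3 members passed, against 7.6% of all genes: SREBF1 and LPIN1 higher and SQLE lower.

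SREBF1 encodes the factor tied most closely to fatty acid genes. It read 9393, 6941 and 6147 normalized counts in the MCF10A control libraries and 15270, 18335 and 10438 in the knockdown-labelled ones. Every knockdown-labelled library was above every control, with a log2 difference of 0.96 (SE 0.24, adjusted p = 0.0866, and 0.0142 with the block). SREBF2, the factor tied most closely to cholesterol genes, read 4912, 8199 and 7246 against 5822, 7238 and 6169 (−0.06, SE 0.21, adjusted p = 0.923). Its libraries overlapped, and the sign of its difference turned when libraries were scaled to equal sums (0.03).

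Squalene epoxidase, SQLE, acts at the step after squalene. It read 3042, 4425 and 3171 in control MCF10A and 1556, 2479 and 1948 in the knockdown-labelled libraries, with no overlap (−0.84, SE 0.22, adjusted p = 0.0919, and 0.0106 with the block). Its direction was opposite to that of SREBF1. LPIN1, whose product turns phosphatidate into diacylglycerol, read 2719, 4533 and 1934 against 3827, 5946 and 3190 and overlapped (0.54, SE 0.33, adjusted p = 0.449, and 0.0495 with the block). HMGCS1, the first enzyme given to the mevalonate route, read 1187, 2013 and 895 against 687, 2130 and 728 (−0.33, SE 0.46, adjusted p = 0.757). INSIG1 read 856, 1147 and 572 in control (difference −0.56, SE 0.57, adjusted p = 0.662). Both arms of HMGCS1 and of INSIG1 had a high replicate b.

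FASN, the synthase of palmitate, read 10413, 9575 and 6735 in control MCF10A and 8002, 17252 and 6851 in the other arm (0.16, SE 0.34, adjusted p = 0.85). SCD read 43686, 43566 and 21331 in control (difference 0.47, SE 0.49, adjusted p = 0.669). Without replicate b of the knockdown-labelled arm the difference was −0.24 for FASN and −0.09 for SCD, so that 1 library set the direction of both. By role, 3 of the 18 cholesterol enzymes (PMVK, LSS and HSD17B7) and 5 of the 8 fatty acid genes had a difference above 0, with medians of −0.26 and 0.15. None of these passed the test.

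In MCF10AT1, TM7SF2 alone passed, against 13.0% of 16050 tested genes. TM7SF2, a sterol reductase that acts after lanosterol, read 98, 111 and 112 normalized counts in control and 646, 506 and 212 in the knockdown-labelled libraries. It was higher in each of the 3 by a log2 difference of 1.93 (SE 0.45, adjusted p = 0.0263, and 0.00437 with the block), and it lost the call without knockdown-labelled replicate a (1.61), knockdown-labelled replicate b (1.78) or control replicate a (1.87). Its highest libraries were a and b, and TM7SF2 shares its locus on the same strand with VPS51, so that reads of the neighbours may be hard to part. The arms did not overlap for 6 members, 3 in each direction, against 32.8% of all genes. With the block 5 members passed, against 24.5% of all genes: TM7SF2 and SREBF1 higher, and CYP51A1, HSD17B7 and LPIN1 lower. Same-letter libraries correlated over all genes in this line, but the mean log2 value of the members did not follow the letters. It was 10.43, 10.83 and 11.04 in control a, b and c, and 11.16, 10.54 and 10.43 in the knockdown-labelled libraries. The blocked calls thus rest on a pairing that the mean of the members did not show.

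The median log2 difference of the members was 0.05 with a median SE of 0.41, near that of all genes (0.02 and 0.45). SREBF1 read 6573, 3930 and 9689 in control and 9036, 9361 and 16242 in the knockdown-labelled MCF10AT1 libraries (0.82, SE 0.40, adjusted p = 0.227, and 0.0396 with the block). For each letter the knockdown-labelled library was the higher, although the arms overlapped. SREBF2 read 3639, 3583 and 6976 against 3883, 4715 and 6611 (0.14, SE 0.35, adjusted p = 0.836), with replicate c high in both arms. INSIG1 read 618, 927 and 1996 against 1591, 836 and 947 (0.05, SE 0.46, adjusted p = 0.962).

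Of the 18 cholesterol enzymes in MCF10AT1, 9 had a difference above 0, with a median of −0.01, and TM7SF2 was the only one to pass without the block. SQLE read 1224, 1232 and 1366 against 976, 612 and 720 (−0.75, SE 0.28, adjusted p = 0.119), with no overlap. CYP51A1, the demethylase of lanosterol, read 2554, 2487 and 4243 against 1841, 1374 and 1563 (−0.92, SE 0.30, adjusted p = 0.0826, and 0.0237 with the block). It did not overlap either. HSD17B7, a ketoreductase of the sterol demethylation complex, read 402, 381 and 331 against 339, 128 and 104 (−1.15, SE 0.47, adjusted p = 0.152, and 0.0412 with the block). Its pseudogene HSD17B7P2 was listed at 3.81 to 126 over the 18 libraries, so the split of reads between the pair is uncertain. HMGCS1 read 405, 452 and 2004 against 985, 254 and 306 (−0.75, SE 0.71, adjusted p = 0.542), where 1 library in each arm lay far above the others.

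Among the fatty acid genes of MCF10AT1, FASN read 13338, 11825 and 14195 in control and 25317, 19102 and 22629 in the knockdown-labelled libraries (0.76, SE 0.27, adjusted p = 0.101). Its arms did not overlap, yet it missed the threshold in either fit (0.0538 with the block). FADS1 read 1025, 1249 and 1734 against 2076, 1939 and 2329. Its arms did not overlap either, and it passed in neither fit. SCD read 19600, 31540 and 48775 against 31803, 33112 and 38531 (0.14, SE 0.38, adjusted p = 0.841). LPIN1 read 1705, 922 and 5904 against 781, 547 and 779, lower in all 3 by −1.60 (SE 0.61, adjusted p = 0.129, and 0.00791 with the block), and control replicate c lay far above the other libraries. Scaling to equal sums moved the median of all genes from 0.02 to −0.15 in this line, and the differences of SREBF2, INSIG1 and SCD then had the opposite sign. The part of the epithelial, mesenchymal and adipocyte marker differences in these values was not tested, and fewer cells of a type and less RNA per cell cannot be told apart in bulk RNA.

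In MCF10CA1h, the 1 line whose METTL3 RNA fell, 3 members passed, all higher in the knockdown-labelled libraries, against 12.8% of 15127 tested genes. FADS1, which desaturates polyunsaturated fatty acids, read 1241, 1359 and 1133 in control and 1748, 2131 and 1768 in the knockdown-labelled libraries (0.59, SE 0.12, adjusted p = 0.00898). MSMO1, which acts after CYP51A1 and starts the removal of the later methyl groups of sterols, read 1401, 1524 and 1771 against 1886, 2659 and 2104 (0.49, SE 0.14, adjusted p = 0.0459). STARD4, a soluble sterol carrier, read 268, 321 and 308 against 431, 376 and 452 (0.49, SE 0.14, adjusted p = 0.0496). The arms of all 3 were apart in every library. FADS1 kept its call whichever library was left out, whereas MSMO1 lost it without any 1 of 4 libraries (control a or b, knockdown-labelled b or c) and STARD4 without any of the 6. None of the 3 passed when the intensity trend was left out of the fit or when all 18 libraries were fitted jointly.

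Differences in MCF10CA1h were small and well measured. The 95% interval lay within a 2-fold change either way for 29 of 30 members, TM7SF2 being the exception (144, 129 and 199 against 97.2, 93.0 and 188, −0.37, SE 0.29). The median log2 difference of the members was 0.04 with a median SE of 0.11, against −0.02 and 0.17 for all genes. The arms did not overlap for 10 members, 8 higher and 2 lower, against 32.7% of all genes. FDPS (0.32), SC5D (0.30), ACLY (0.26), LSS (0.23) and INSIG1 (0.13) were the others with higher values in every library, and SCD and SREBF2 those with lower ones.

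SCD read 27933, 26442 and 28002 in control MCF10CA1h and 22365, 22084 and 23557 in the knockdown-labelled libraries (−0.28, SE 0.08, adjusted p = 0.0511), just outside the threshold. SREBF1 read 7844, 5952 and 8034 against 6496, 6806 and 6436 (−0.13, SE 0.12, adjusted p = 0.511). SREBF2 read 5030, 5198 and 5114 against 4816, 4690 and 4171 (−0.17, SE 0.09, adjusted p = 0.25). Whether either factor had a part in the calls of FADS1, MSMO1 and STARD4 was not tested. INSIG1 read 1401, 1415 and 1396 against 1595, 1537 and 1472 (adjusted p = 0.408), and HMGCS1 read 3496, 3875 and 2910 against 3428, 2564 and 2960 (−0.20, SE 0.13, adjusted p = 0.371). SQLE read 2062, 2297 and 2034 against 2504, 2367 and 2255 (0.16, SE 0.10, adjusted p = 0.318), and FASN read 24452, 20056 and 21081 against 20256, 23849 and 27420 (0.12, SE 0.12, adjusted p = 0.581). FADS1 overlaps FADS2 on the opposite strand, and FADS2 itself read 291, 319 and 359 against 421, 551 and 331 (0.40, SE 0.19, adjusted p = 0.199). The counting is not stated to use strand.

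**Figure D3:**
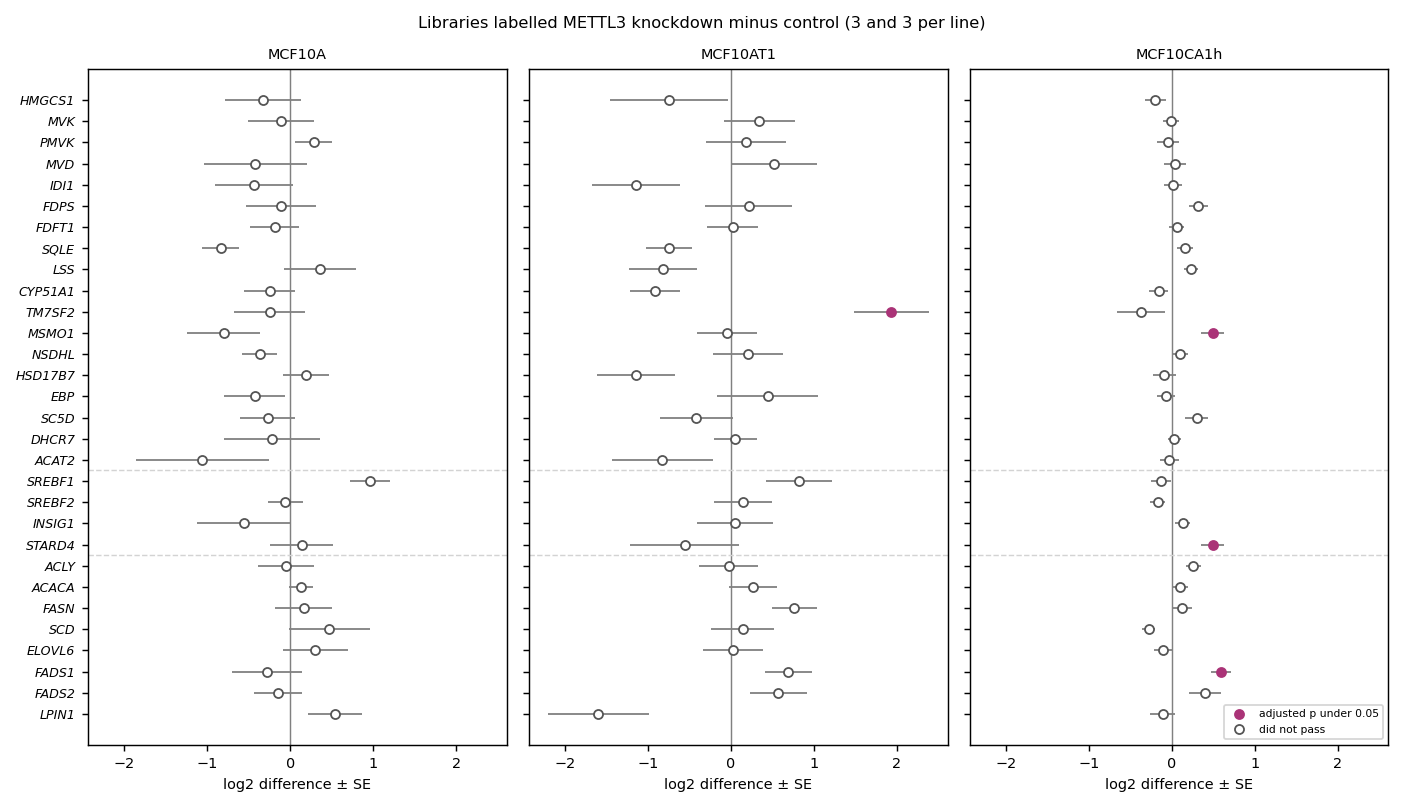
Points give the log2 difference (knockdown-labelled minus control) and bars its SE for the 30 genes in each line, filled where the adjusted p was under 0.05. Of all points, only TM7SF2 in MCF10AT1 and MSMO1, STARD4 and FADS1 in MCF10CA1h are filled, and the bars of MCF10CA1h are the shortest.

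Other genes of the lipid routes were taken from a list of 42, of which 40 were tested. In MCF10A 1 of the 40 passed, against 2.65% of all genes. This was ACSL4, which activates polyunsaturated fatty acids, at 1418, 1934 and 1413 in control and 3373, 4482 and 4149 in the knockdown-labelled libraries (1.34, SE 0.18, adjusted p = 0.0139). In MCF10AT1 4 passed, against 13.0% of all genes. INSIG2, the paralogue of INSIG1, read 445, 424 and 471 against 73.2, 57.5 and 66.9 (−2.75, SE 0.32, adjusted p = 0.00099). The elongase ELOVL7 was lower (−3.23, SE 0.65), and FADS3 (1.43, SE 0.31) and the sterol exporter ABCA1 (listed at 0, 0 and 1.52 in control and at 8.14, 13.2 and 119) were higher. ABCA1 passed the filter on low values only through the knockdown-labelled arm, mostly through replicate c. Its test could hardly have gone the other way, and the count of 4 includes it.

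In MCF10CA1h 9 of the 40 passed, 6 higher and 3 lower, against 12.8% of all genes. FADS3, the neighbour of FADS1 and FADS2 on chromosome 11, read 554, 564 and 692 against 1304, 1633 and 1586 (1.32, SE 0.13, adjusted p = 0.00024), a larger difference than that of any member in this line. LPIN3 was higher (1.00, SE 0.13), and LBR, a sterol reductase of the nuclear envelope (−0.78, SE 0.20), the oxysterol receptor gene NR1H3 (−0.75, SE 0.19) and ACSL4 (−0.67, SE 0.15) were lower. ACSL4 thus passed in opposite directions in MCF10A and MCF10CA1h.

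A fit over all 18 libraries asked whether the difference between arms itself differed between lines. For MCF10AT1 against MCF10A, 2 members passed, TM7SF2 and LPIN1, against 21.6% of 15897 tested genes. For MCF10CA1h against MCF10AT1, 2 passed, SQLE and TM7SF2, against 18.2%. For MCF10CA1h against MCF10A none passed by limma, against 5.34%, and 3 had an unadjusted p under 0.05 (SQLE, MSMO1 and SREBF1), against 17.5% of genes. With the block 2 passed there, against 8.07% of genes, SQLE (0.99, SE 0.22, adjusted p = 0.0183) and SREBF1 (−1.09, SE 0.27, adjusted p = 0.0294). The letters of MCF10CA1h did not mark libraries that moved together.

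**Figure D4:**
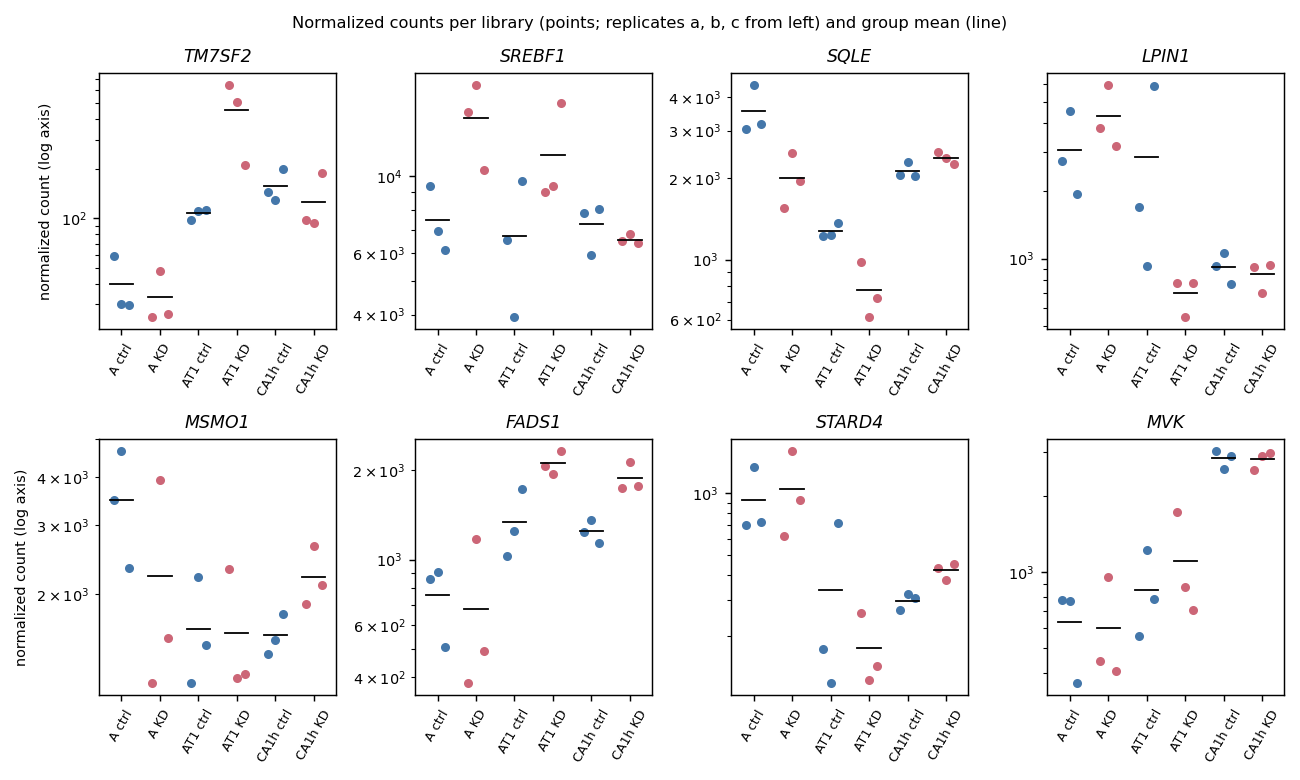
Normalized counts of 8 members in each library on log axes (points from left to right, replicates a, b and c; blue, control; red, knockdown-labelled; KD, knockdown-labelled; lines, group means). TM7SF2 in MCF10AT1 and FADS1 in both MCF10AT1 and MCF10CA1h are apart between arms. SREBF1 is higher in the knockdown-labelled arms of MCF10A and MCF10AT1 and not in MCF10CA1h, and MVK is highest in MCF10CA1h.

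MCF10CA1h had the highest mean of log2(normalized count + 1) over the 30 members, 11.20 ± 0.04 (SD, n = 3), against 10.65 ± 0.38 in MCF10A and 10.77 ± 0.31 in MCF10AT1. The last 2 lines did not differ beyond their spread. The median SE of a member was 0.32 in this fit, which held the 9 control libraries. The fits over 9 and over 18 libraries used 1 variance per gene for all lines. The median SD of the members was 0.46 in control MCF10A, 0.58 in MCF10AT1 and 0.13 in MCF10CA1h. The SE of a comparison of 2 lines thus also holds the spread of the third. Each line is 1 clone, so line and clone cannot be told apart.

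From MCF10A to MCF10CA1h, 17 of 30 members passed, against 37.8% of 15652 tested genes. Of these, 14 were higher, against 19.0% of all genes called higher, and 3 were lower, SQLE, MSMO1 and LPIN1. The median log2 difference of the members was 0.88, against −0.06 over all genes. It was 1.02 for the cholesterol enzymes and 0.78 for the fatty acid genes, and the regulators had a median of −0.20 with none called. With the replicate letter as a block 14 passed, against 34.6% of genes, and LPIN1, FADS2 and ACACA lost the call. Whether letters pair between lines was not checked, so the blocked counts of all line comparisons are given only as an alternative fit. Leaving out 1 library changed the number called to 9 without MCF10A replicate c, and to 7, 9 and 7 without MCF10CA1h replicates a, b and c. These are falls, and the full range given below also holds counts above 17. The share of all genes called with a library left out was not taken, here or in the other line comparisons.

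Of the 18 cholesterol enzymes, 9 were called higher in MCF10CA1h and 2 lower. Mevalonate kinase, MVK, read 778, 767 and 363 in control MCF10A and 3030, 2563 and 2893 in control MCF10CA1h (2.23, SE 0.35, adjusted p = 0.00155). MVD, which yields isopentenyl pyrophosphate, rose by 1.50 (SE 0.45), the farnesyl synthase FDPS by 1.51 (SE 0.39), squalene synthase FDFT1 by 1.04 (SE 0.25) and the isomerase IDI1 by 0.99 (SE 0.32). PMVK, the kinase between MVK and MVD, read 965, 657 and 549 against 819, 714 and 945 and did not pass (0.22, SE 0.39, adjusted p = 0.677).

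SQLE fell by 0.72 on the log2 scale (SE 0.19, adjusted p = 0.0157). MSMO1 read 3486, 4672 and 2333 against 1401, 1524 and 1771 (−1.11, SE 0.30, adjusted p = 0.0171). CYP51A1 (−0.56, SE 0.24, adjusted p = 0.0914) and SC5D, a late sterol desaturase (−0.94, SE 0.36, adjusted p = 0.0646), had lower values in every MCF10CA1h library without passing. Other enzymes that act after lanosterol were called higher. TM7SF2 stood at 59.3, 30.1 and 29.9 against 144, 129 and 199 (2.01, SE 0.34, adjusted p = 0.00215). DHCR7, the reductase of the last step, rose by 1.30 (SE 0.29), NSDHL by 1.03 (SE 0.30) and HSD17B7 by 0.97 (SE 0.24), and the isomerase EBP had a value of 1.16 (SE 0.43, adjusted p = 0.0571). Calls in both directions thus occurred among the enzymes that act after lanosterol.

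Among the fatty acid genes, FASN stood at 10413, 9575 and 6735 in control MCF10A and at 24452, 20056 and 21081 in control MCF10CA1h (1.31, SE 0.20, adjusted p = 0.00144). The elongase ELOVL6 read 903, 1137 and 725 against 2160, 2031 and 2356 (adjusted p = 0.00293). ACLY, which makes cytosolic acetyl-CoA from citrate, rose by 1.04 (SE 0.30), FADS2 by 0.80 (SE 0.28) and ACACA by 0.57 (SE 0.19). LPIN1 fell by 1.66 on the log2 scale (SE 0.58, adjusted p = 0.0475), and SCD did not pass (−0.32, SE 0.36, adjusted p = 0.506). Neither SREBF1 (−0.03, SE 0.32, adjusted p = 0.947) nor SREBF2 (−0.38, SE 0.29, adjusted p = 0.324) passed, with 95% intervals of −0.74 to 0.68 and −1.02 to 0.27. STARD4 had lower values in every MCF10CA1h library (−1.56, SE 0.57, adjusted p = 0.0558).

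**Figure D5:**
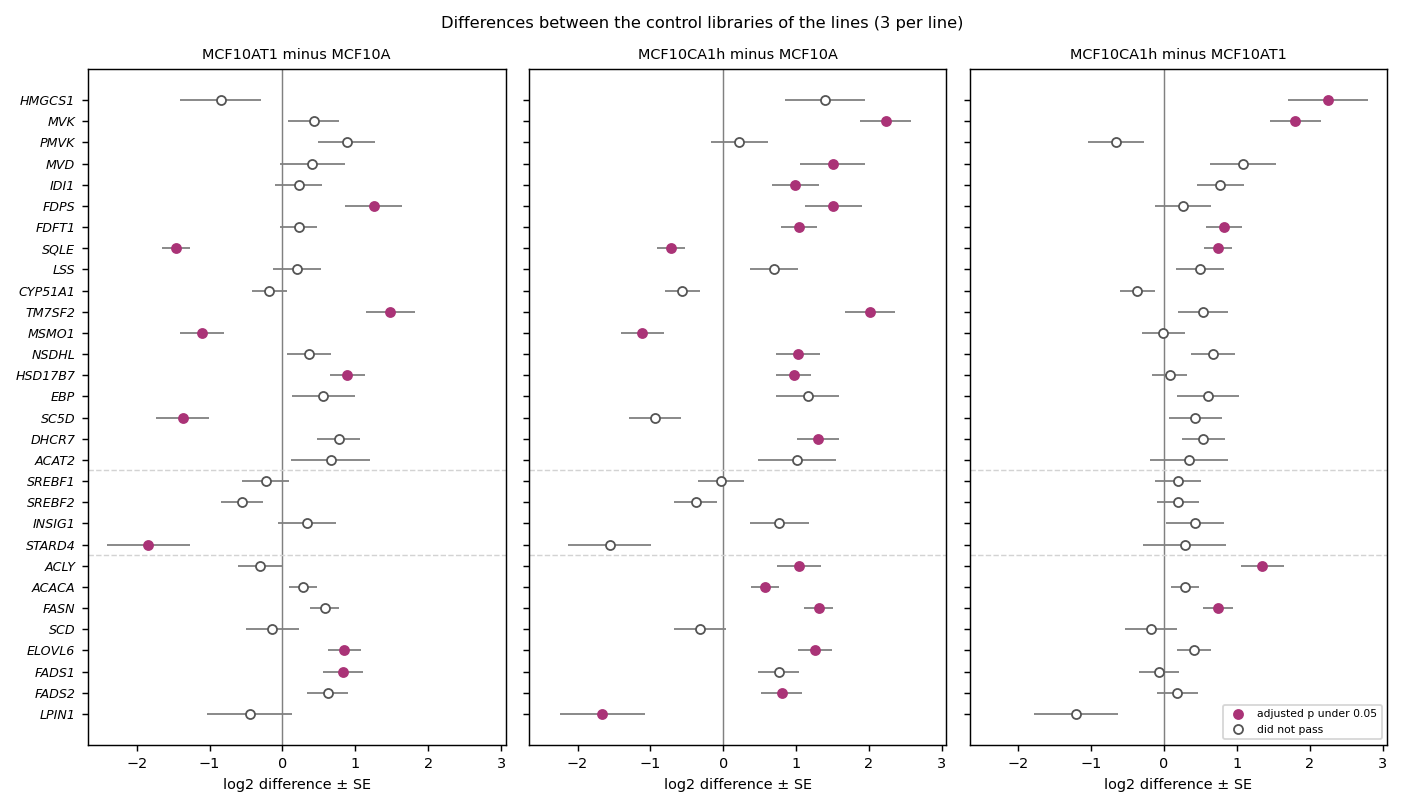
Points give the log2 difference between control libraries of 2 lines and bars its SE for the 30 genes, filled where the adjusted p was under 0.05. In the middle panel (MCF10CA1h minus MCF10A) 14 filled points lie right of 0 and 3, SQLE, MSMO1 and LPIN1, lie left of it.

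MCF10AT1 against MCF10A gave 9 called members, against 28.1% of tested genes, with 5 higher and 4 lower and a median log2 difference of 0.31. SQLE fell by 1.46 (SE 0.19, adjusted p = 0.00134), from 3042, 4425 and 3171 to 1224, 1232 and 1366. STARD4 fell by 1.84 (SE 0.57, adjusted p = 0.0400), SC5D by 1.37 (SE 0.36) and MSMO1 by 1.10 (SE 0.30), while TM7SF2 rose by 1.48 (SE 0.34) and FDPS by 1.25 (SE 0.39). HSD17B7, ELOVL6 and FADS1 were the other members called higher. With the block 7 passed, against 23.5% of genes, and STARD4 and FADS1 lost the call. The count was 3 without MCF10A replicate b, 2 without MCF10A replicate c, and 3 and 4 without MCF10AT1 replicates a and b. These are falls, and the full range given below also holds counts above 9. The count was 5 when libraries were scaled to equal sums, which moved the median of all genes from −0.01 to −0.15.

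MCF10CA1h against MCF10AT1 gave 6 called members, against 21.8% of tested genes. All 6 were higher, against 11.0% of genes called higher. HMGCS1 read 405, 452 and 2004 in control MCF10AT1 and 3496, 3875 and 2910 in control MCF10CA1h (2.25, SE 0.55, adjusted p = 0.0191). MVK rose by 1.80 (SE 0.35), ACLY by 1.35 (SE 0.30), FDFT1 by 0.82 (SE 0.25), SQLE by 0.74 (SE 0.19) and FASN by 0.74 (SE 0.20). SQLE was thus lowest in MCF10AT1, intermediate in MCF10CA1h and highest in MCF10A, with all 3 pairs of lines past the threshold. With the block 4 passed, against 17.6% of genes, and FDFT1 and FASN lost the call. The count was 1 without MCF10AT1 replicate a, 10 without MCF10AT1 replicate b, and 2, 1 and 2 without MCF10CA1h replicates a, b and c. The 3 comparisons of lines share their control libraries, as each does with the comparison of arms in its line.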

How the data were processed

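RNA-seq was made from 18 libraries of 3 cell lines, with 3 libraries in each of 6 groups named by the titles. The authors deposited 1 table of signal values: kallisto 0.46.1 estimates summed to genes with tximport and divided by DESeq2 1.26.0 normalization factors (R 4.1.1, hg38), to 2 decimals. They are normalized counts, not raw counts, and the lowest values differ between genes of a library, so whole reads were not recovered and no count model was run. The label names polyA RNA and the methods name ribosomal depletion, which was not resolved. Rows without a gene (24646) were left out. log2(value + 1) was tested with limma 3.58.1 (R 4.3.3; intensity trend) over genes with a mean of at least 10, with Benjamini-Hochberg adjustment over all tested genes and a threshold of 0.05. Arms were compared within a line (6 libraries), lines over the 9 controls, and differences of differences over 18 libraries. A fold is on the log2(value + 1) scale. All intervals are 95% and unadjusted.

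The letters in the titles were checked for pairing: deviations of same-letter libraries from their group means over 15877 genes correlated at 0.218, 0.200 and 0.115 in MCF10A and 0.109, 0.288 and 0.476 in MCF10AT1, all above 0.1, so the blocked value is printed there where it changed a call. In MCF10CA1h they were −0.011, 0.015 and 0.043. Libraries of different letters were not compared in this check, and letters were not checked between lines. Nothing says that replicates were separate cultures, so p-values may measure technical spread. Transcript lengths were those of the longest protein-coding transcript in GENCODE v44.

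Alternatives were pseudocounts of 0.5 and 5, a mean of at least 50 or no filter, no trend, median-of-ratios factors, equal sums, the block, a joint fit and leaving out each library. Scripts were tested on simulated data. The members and lists were chosen with earlier results of these data known. Named genes were all members; per-library values were given for called members and for SREBF1, SREBF2, INSIG1, HMGCS1, SQLE, FASN and SCD, and at most 5 called genes of the wider list per line. Members named outside this rule were chosen after their values were seen.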

Additional observations from a re-analysis of the deposited data

Results flagged for a closer look

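For 3 members the difference between arms itself differed between lines by the interaction term of the 18-library limma fit, in 4 comparisons. TM7SF2 differed by 2.18 on the log2 scale between MCF10AT1 and MCF10A (SE 0.59, adjusted p = 0.0141) and by −2.31 between MCF10CA1h and MCF10AT1 (SE 0.59, adjusted p = 0.0122). It was higher in 3 of 3 knockdown-labelled MCF10AT1 libraries than in any control of that line, and it read 25.0, 47.7 and 26.3 in the knockdown-labelled MCF10A libraries against 59.3, 30.1 and 29.9 in control. Both calls held when any 1 library was left out, and the adjusted p ran from 0.00194 to 0.0397 and from 0.00161 to 0.0383 over the alternatives.

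LPIN1 differed by −2.13 between MCF10AT1 and MCF10A (SE 0.68, adjusted p = 0.0324, from 0.00238 to 0.085 over the alternatives). It was lower in 3 of 3 knockdown-labelled MCF10AT1 libraries, while the MCF10A arms overlapped. The call was lost without MCF10A control replicate a or c, MCF10A knockdown-labelled replicate a or b, or MCF10AT1 knockdown-labelled replicate b.

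SQLE differed by 0.91 between MCF10CA1h and MCF10AT1 (SE 0.28, adjusted p = 0.0353, from 0.0113 to 0.099). It was lower in 3 of 3 knockdown-labelled MCF10AT1 libraries, and its MCF10CA1h arms overlapped. The call was lost without any 1 of 9 libraries of these lines. Marker sums that set the knockdown-labelled MCF10AT1 libraries apart move with all 4 results, and their part was not tested.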

How the results depend on the processing

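Between arms, 0 members were called for MCF10A, 1 for MCF10AT1 and 3 for MCF10CA1h, against 2.65%, 13.0% and 12.8% of all genes. With the replicate block the numbers were 3, 5 and 2, against 7.6%, 24.5% and 12.4%. In a joint fit of the 18 libraries they were 1, 7 and 0. Shares over all genes were taken only for the main fit and the block. The other counts below therefore cannot be told apart from a general change in the number of calls. For MCF10CA1h the number was 1 without the filter on low values and 0 without the intensity trend, and the median difference of the members went from 0.04 to −0.02 with equal sums per library. With equal sums, the differences of SREBF2 in MCF10A (0.03) and of SREBF2 (−0.03), INSIG1 (−0.12) and SCD (−0.02) in MCF10AT1 changed sign, and the count for control MCF10AT1 against control MCF10A fell from 9 to 5. For the difference of effects between MCF10CA1h and MCF10A, the count of 0 became 1 with a pseudocount of 5 and 2 with the block. For MCF10CA1h against MCF10AT1, 2 became 1 without the filter, 1 without the trend and 4 with the block. Leaving out 1 library gave 0 to 2 members called in MCF10A, 0 to 2 in MCF10AT1 and 1 to 3 in MCF10CA1h, with a median of −0.01 to 0.08 in MCF10CA1h. Between control lines it gave 2 to 13 (MCF10AT1 against MCF10A), 7 to 24 (MCF10CA1h against MCF10A) and 1 to 10 (MCF10CA1h against MCF10AT1), and for differences of effects 1 to 3 (MCF10AT1 against MCF10A), 0 to 3 (MCF10CA1h against MCF10A) and 1 to 4 (MCF10CA1h against MCF10AT1). The log2 differences of members that changed sign ranged over −0.27 to 0.10 (SREBF2), −0.24 to 0.42 (FASN) and −0.09 to 0.85 (SCD) in MCF10A, and over −0.07 to 0.45 (SREBF2), −0.33 to 0.51 (INSIG1) and −0.19 to 0.47 (SCD) in MCF10AT1. The cause of these changes was not tested, except that a left-out library removes a sample. Of the values of single members that passed, 253 kept and 131 lost the threshold with 1 library left out, and 305 kept and 51 lost it under the other alternatives, none with a change of sign. Depth limits TM7SF2 most, since it was listed at 25.0 to 59.3 in MCF10A.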
